A study of Mus musculus with 4 samples.

Results

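The genes described here are 36 genes of the endoplasmic reticulum (ER) that fold secreted and membrane proteins, clear misfolded ones, carry new chains into the ER or signal ER stress. They were taken by name, not by their values, and read from the brightest probe of each gene. All 36 had a probe well above background in both channels of all 4 arrays, among 20051 genes tested in all. Of these 20051, 12304 had a gene symbol, and the others were transcripts without one. Shares of all genes below include both. They comprise 18 chaperones and folding enzymes, 10 genes of ER-associated degradation, 5 sensors and regulators and 3 genes of the translocon.

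R/R cells are mouse fetal liver lines homozygous for a point mutation in each of 2 kinase genes, R24C in Cdk4 and R31C in Cdk6. The cyclin D-dependent kinases CDK4 and CDK6 start the cell cycle, and these substitutions are known to stop INK4 inhibitors from binding them. Wild-type (WT) lines had neither mutation. The strain of both genotypes was a mix of C57BL/6J with CD-1, and both were transformed with p185 BCR-ABL1, a leukaemia tyrosine kinase, so the WT cells carried it too. The lines are clones that arose spontaneously after transduction of fetal liver, and RNA came from asynchronous cultures in RPMI medium. R/R clones 1, 2 and 3 were labelled with Cy5, each on its own 2-colour array, against a WT pool in Cy3, and on another array an R/R pool in Cy3 was set against the WT pool in Cy5. The names of clones 1 and 2 begin with the same number and that of clone 3 with another, and what the pools held is not stated. The design text counts 3 control replicates, but the arrays name a single WT pool. Pooled or cloned lines stand in for each genotype here, so the test below measures the spread between 3 clones and leaves out that of the WT pool.

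Of the marker lists checked, all 8 B-lineage genes, among them Cd79a and Pax5, passed the filter on dim probes, and none was called different between R/R and WT. None of 7 erythroid and none of 5 megakaryocyte and mast cell markers passed it, while 4 of 6 myeloid and 3 of 5 T cell markers did. Between 42.8% and 53.4% of spots were well above background per channel.

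Proteins that enter the ER fold with the help of the HSP70-type chaperone BiP, encoded by Hspa5, of lectin chaperones that read their glycans, and of disulfide isomerases. When unfolded chains build up, the sensors IRE1, ATF6 and PERK start the unfolded protein response (UPR). ATF6 and the spliced product of Xbp1 switch on chaperone and degradation genes, whereas PERK phosphorylates eIF2alpha, which slows translation and lets ATF4 be made. B-lineage cells are known for using this system heavily when they turn into antibody-secreting cells.

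The best-known site for ATF6 and XBP1 is the ER stress response element (ERSE), spelled CCAAT, 9 bases of any kind, then CCACG. It was looked for on both strands of the 300 bases from 250 before to 50 after each transcription start in RefSeq (build GRCm38.p6). Its letters were found for 10 of the 30 members that had such a window (33.3%), and in 0.119% of all 32851 windows. For every motif searched, a gene counts if any of its windows holds the letters, whereas the share of all windows counts single windows. These shares are thus in unlike units, and a share over all genes was not computed. The members were also listed by name as genes of the ER and its stress response. A higher share of such letters among them is therefore built into the choice and is no result of these arrays. The 11 sites of these 10 members are shown because ERSE was the motif found for the most members, 8 of them chaperone or folding genes and 2, Syvn1 and Derl3, degradation genes. Each is printed in the direction of the motif with its CCAAT and CCACG blocks in capitals. Hsp90b1 held 2 of them.
Hspa5: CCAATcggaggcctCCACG
Hsp90b1, distal: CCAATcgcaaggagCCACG
Hsp90b1, proximal: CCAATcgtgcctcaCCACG
Pdia6: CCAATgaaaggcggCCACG
Creld2: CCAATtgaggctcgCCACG
Dnajc3: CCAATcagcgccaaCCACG
Ero1b: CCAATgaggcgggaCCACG
Calr: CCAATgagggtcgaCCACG
Canx: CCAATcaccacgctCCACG
Syvn1: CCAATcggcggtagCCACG
Derl3: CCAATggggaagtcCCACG

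The shorter variant ERSE-II, which is ATTGG, 1 base of any kind, then CCACG, stood in the windows of Dnajb11 and Herpud1 (2 of 30 members, 6.67%, against 0.0365% of all windows). It shares its CCACG block with ERSE, but no site was counted for both. The XBP1 element UPRE, searched as TGACGTGG, was found for Txndc5 and Vcp (6.67% of members and 0.676% of all windows). The core of the ATF4 element CARE, searched as TGATGNAA, was found for Txndc5 and Herpud1 (6.67% of members and 3.97% of all windows), and for 6 of 12 genes of the PERK and ATF4 arm, namely Atf3, Trib3, Chac1, Asns, Nupr1 and Vldlr. The genes of that arm were listed by name too, so their CARE count is likewise no result of these arrays. The sites of Txndc5 lay in the windows of different starts. Start windows are printed for the BiP gene, which had the second highest ratio of the members, and for Herpud1, which had the lowest and held letters of both ERSE-II and CARE. Capitals mark these motifs, with CARE and its fixed letters read on the opposite strand.
Hspa5, chr2:34771840-34772139, plus strand: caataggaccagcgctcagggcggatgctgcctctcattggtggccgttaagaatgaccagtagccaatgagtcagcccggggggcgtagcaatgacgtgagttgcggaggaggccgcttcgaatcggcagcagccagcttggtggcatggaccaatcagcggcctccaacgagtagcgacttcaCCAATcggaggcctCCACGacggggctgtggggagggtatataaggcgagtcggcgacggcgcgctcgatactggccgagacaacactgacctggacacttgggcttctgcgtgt
Herpud1, chr8:94386179-94386478, plus strand: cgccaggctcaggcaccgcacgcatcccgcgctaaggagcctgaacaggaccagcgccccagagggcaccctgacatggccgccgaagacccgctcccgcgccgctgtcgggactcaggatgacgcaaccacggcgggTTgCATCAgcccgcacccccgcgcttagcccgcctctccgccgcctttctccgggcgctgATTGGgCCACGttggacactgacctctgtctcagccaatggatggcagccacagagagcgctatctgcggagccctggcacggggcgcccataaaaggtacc

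A match of letters describes the window and is not a measured binding site. The 12 members with ERSE or ERSE-II letters had a median log2 ratio, R/R over WT, of 0.16 (-0.92 to 0.65, 9 of 12 above 0), and the 18 without had 0.12 (-0.62 to 0.43, 14 of 18 above 0). The ranges of members with and without these letters overlapped almost fully. Clgn, Manf, Hyou1, Atf6, Derl1 and Sec61a1 were not matched to a window.

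**Figure D1:**
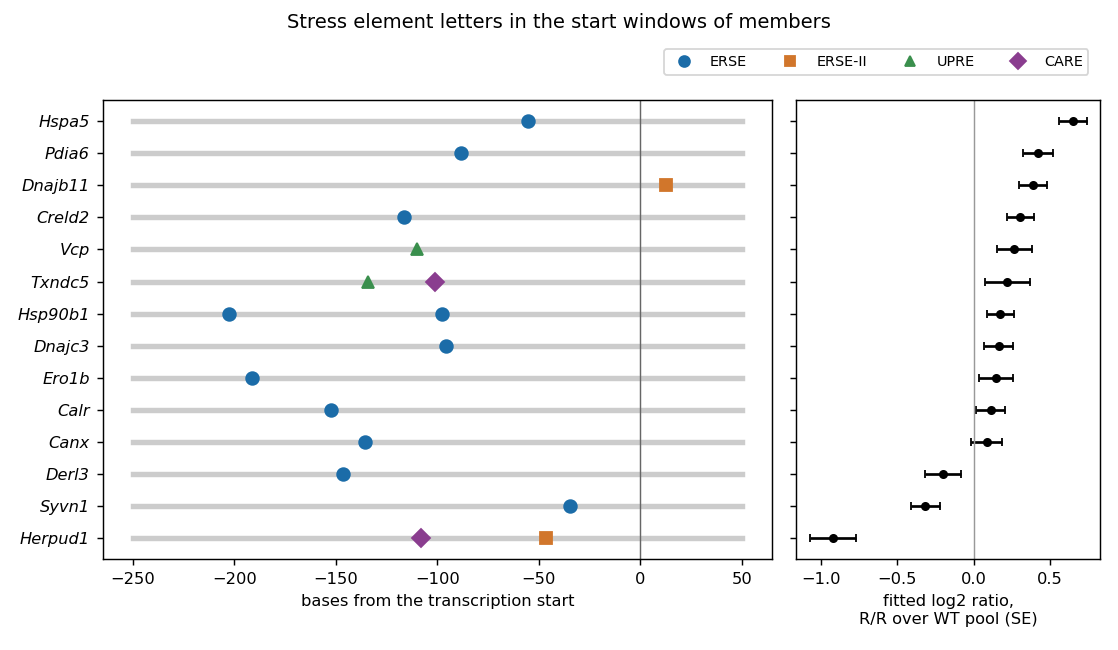
Positions of the searched motifs (symbols, left) between 250 bases before and 50 after the transcription start, for the 14 members that held any, and the fitted log2 ratio, R/R over WT pool, of each member (right, bars are the SE of the fit). Members are ordered by ratio; Hspa5 stands highest at 0.65 and Herpud1 lowest at -0.92, and both hold an ERSE-type motif within about 65 bases of the start.

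Of the 36 members, only the chaperone gene Clgn passed the test, 2.34-fold higher in R/R cells. Most other chaperones had small ratios above 0, led by Hspa5 at 1.57-fold, and the lowest ratios belonged to Herpud1 and Ppp1r15a, neither of which passed. A gene is called here when its limma p, adjusted over all 20051 genes by Benjamini-Hochberg, lies under 0.05. That made 1 of 36 members higher (2.78%), against 0.15% of all genes, and none lower, against 0.374% of all genes. The smallest log2 ratio called in any gene, in either direction, was 0.741 in size. A gene with a smaller ratio, such as Hspa5 at 0.65 or Ppp1r15a at -0.62, thus did not pass anywhere, and not passing does not show a lack of change. At an unadjusted p under 0.05, 7 members were higher and 4 lower (19.4% and 11.1%), against 7.26% and 8.09% of all genes. Of the 36, 27 had a fitted ratio above 0 (75%), against 46.4% of all genes, and 9 below 0 (25%), against 53.6%. Ratios were above 0 on all 4 arrays for 12 members (33.3%), against 14.6% of all genes, and below 0 on all 4 for 5 (13.9%), against 16.2%. On arrays of bulk RNA, more cells of a kind and more RNA per cell cannot be told apart.

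Levels in the R/R channels and in the WT channels of the 4 arrays did not overlap for 13 members. R/R levels were all above the WT levels for 9 (25%, against 9.17% of all genes), namely Clgn, Hspa5, Sdf2l1, Hsp90b1, Dnajb11, Creld2, Manf, Pdia6 and Vcp. They were all below for P4hb, Herpud1, Syvn1 and Ppp1r15a (11.1%, against 9.55% of all genes). The WT channel is the same pool measured again on each array, and its level had a median SD of 0.07 over the members (0.02 to 0.21, log2 scale, 4 arrays). Ratios of the 3 clones had a median SD of 0.15 over the members (0.01 to 0.66), and of 0.17 over all genes.

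**Figure D2:**
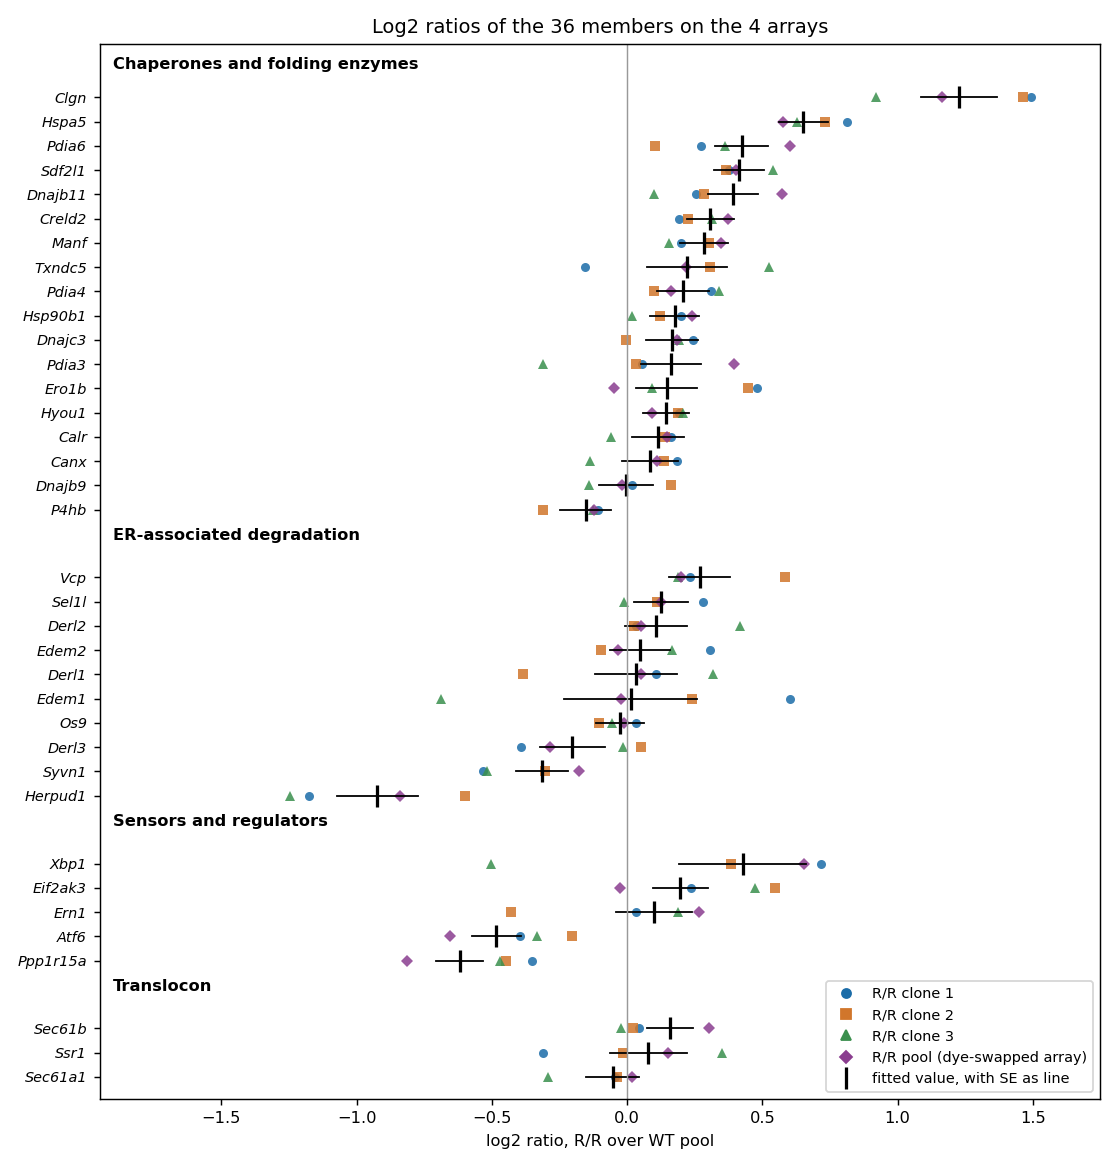
Log2 ratio, R/R over WT pool, of each of the 36 members on the 4 arrays (coloured symbols) with the fitted value (black tick) and its SE (line), grouped by role and ordered by fitted value. Most chaperones lie right of 0, Clgn farthest at 1.23, whereas Herpud1, Ppp1r15a and Atf6 lie left of 0 on all 4 arrays and Xbp1 and Edem1 are spread to both sides.

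Among the 18 chaperones and folding enzymes, 16 had a fitted ratio above 0, against 46.4% of all genes. Above 0 on all 4 arrays were 10 of the 18, against 14.6% of all genes. Dnajb9 and P4hb, the genes of this role with fitted ratios below 0, stood at -0.00 and -0.15. The median log2 ratio was 0.19, and by array it was 0.20, 0.18 and 0.17 in clones 1, 2 and 3 and 0.23 in the pool. Over all genes the median of the fitted ratios was -0.02 and array medians ran from -0.02 to 0.01. Clgn rose and the other 17 did not pass. Its median kept its sign under all 14 alternative settings, from 0.17 to 0.23.

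Clgn encodes calmegin, an ER lectin chaperone related to calnexin that is best known from male germ cells. Its log2 intensity was 10.68, 10.52 and 9.98 in R/R clones 1, 2 and 3 and 10.36 in the R/R pool, against 9.19, 9.06, 9.06 and 9.20 in the WT pool on the same arrays. Clone 3 was the lowest R/R sample and still lay above every WT value. The fitted log2 ratio was 1.23 ± 0.14 (SE, 3 clones and 1 pool, limma adjusted p = 0.048). That call was lost without clone 1 (adjusted p = 0.080), without clone 2 (0.075), with the scanner software's own ratios (0.133), with median centring (0.188), with scaling between arrays (0.052) and with no filter on dim probes (0.060), while the ratio stayed between 1.18 and 1.41.

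The closest relatives of calmegin, the lectin chaperones calnexin and calreticulin, were near 0. Canx had log2 ratios of 0.18, 0.14 and -0.14 in clones 1 to 3 and 0.11 in the pool, a fitted 0.09 ± 0.10 (limma adjusted p = 0.726). For Calr the ratios were 0.16, 0.14, -0.06 and 0.15 on the same arrays, a fitted 0.11 ± 0.09 (adjusted p = 0.592). Clone 3 was the one array below 0 for both genes. The difference between Clgn and its relatives was not tested.

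Hspa5, the gene of the chaperone BiP that also holds the UPR sensors inactive, had log2 intensities of 13.96, 13.98 and 13.83 in clones 1, 2 and 3 and 13.87 in the R/R pool, against 13.15, 13.25, 13.21 and 13.30 in the WT pool. Every R/R value lay above every WT value. The fitted log2 ratio of 0.65 ± 0.09 (1.57-fold) did not pass (limma adjusted p = 0.067), although the clones alone passed (0.72, adjusted p = 0.048).

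The gene for the BiP cofactor SDF2L1 followed the same order. Sdf2l1 had log2 intensities of 11.22, 11.26 and 11.54 in clones 1, 2 and 3 and 11.40 in the R/R pool, against 10.85, 10.90, 11.00 and 11.00 in the WT pool. R/R and WT levels did not overlap, and its ratios, 0.36 to 0.54, were close together. The fitted 0.41 ± 0.09 did not pass (limma adjusted p = 0.148).

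**Figure D3:**
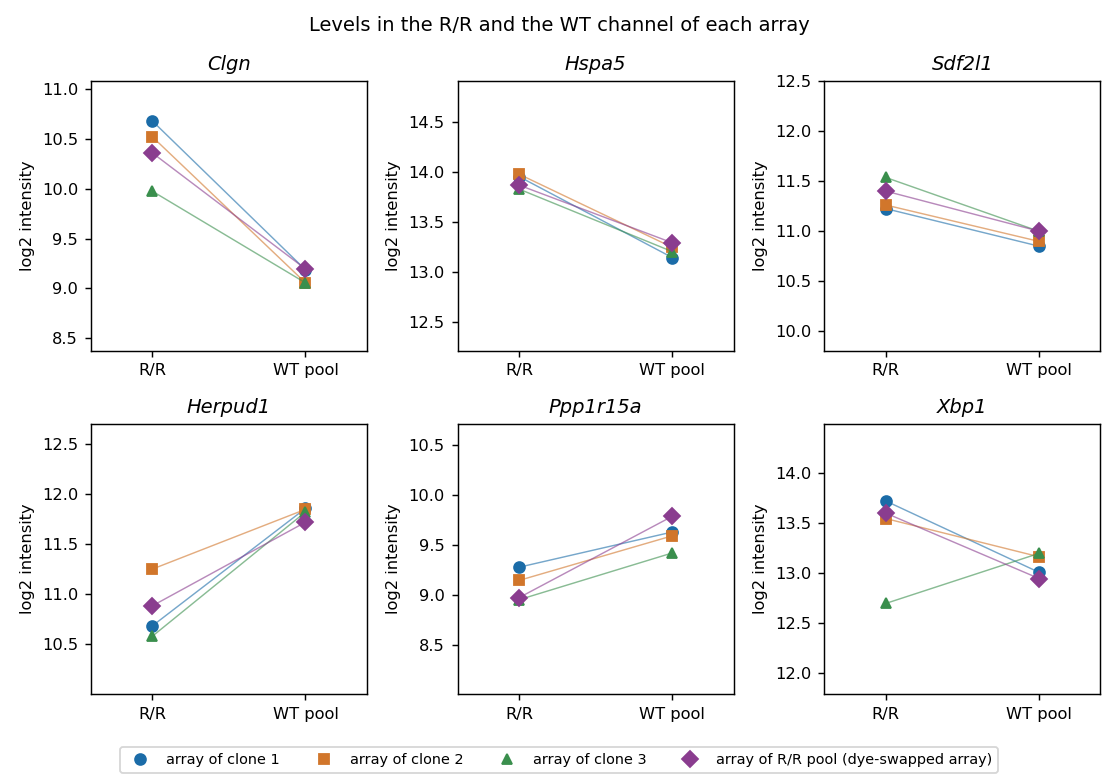
Log2 intensity of 6 members in the R/R channel (left) and the WT channel (right) of each array; lines join the channels of an array, and each panel spans the same height. R/R values lie above all WT values for Clgn, Hspa5 and Sdf2l1 and below them for Herpud1 and Ppp1r15a, and for Xbp1 clone 3, at 12.69, lies below the WT pool while the other R/R samples lie above it.

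BiP works with J-domain partners and a nucleotide exchange factor. Dnajb11, whose product ERdj3 brings BiP to unfolded chains, had ratios of 0.25, 0.28 and 0.10 in clones 1 to 3 and 0.57 in the pool (fitted 0.39 ± 0.09, limma adjusted p = 0.161). The start window of Dnajb11 held the ERSE-II letters. Dnajc3, which encodes a cochaperone that also inhibits PERK, had 0.24, -0.00, 0.19 and 0.18 on the same arrays. Hyou1, the exchange factor gene, had 0.19, 0.19, 0.21 and 0.09, the least spread among clones of all members (SD 0.01), with a fitted 0.14 ± 0.08 (adjusted p = 0.463). Dnajb9, whose product ERdj4 restrains IRE1, took both signs and stood at -0.00 ± 0.10. Another Dnajb9 probe, near background, gave -0.22, -0.04 and -0.12 in clones 1 to 3 and -0.08 in the pool.

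Of the remaining chaperones, Hsp90b1, which encodes the ER form of HSP90, had 0.20, 0.12, 0.02 and 0.24 in clones 1, 2 and 3 and the pool. All 4 lay above 0, at a fitted 0.18 ± 0.09 (limma adjusted p = 0.420). Creld2 and Manf, genes of small ER proteins known to be induced by ER stress, were above 0 on all arrays, at 0.31 ± 0.09 and 0.28 ± 0.09 (adjusted p = 0.206 and 0.237). Their R/R and WT levels did not overlap.

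Ratios of the disulfide isomerases and oxidases took both signs. Pdia6 stood at 0.42 ± 0.10 (limma adjusted p = 0.155), with 0.27, 0.10 and 0.36 in the clones and 0.60 in the pool. Another Pdia6 probe gave the opposite pattern, 0.77, 0.79 and 0.81 in the clones and 0.23 in the pool, so how the pool compares with the clones depends on the probe. Pdia4, the gene of ERp72, stood at 0.21 ± 0.10, above 0 on all arrays. Pdia3, whose product ERp57 works with the lectin chaperones, had -0.31 in clone 3 and 0.40 in the pool (fitted 0.16 ± 0.11). P4hb, the gene of protein disulfide isomerase itself, was the one gene of these 18 below 0 on all 4 arrays, from -0.31 to -0.11, at -0.15 ± 0.09 (adjusted p = 0.477). Ero1b, the array's Ero1lb, which encodes an oxidase that recharges the isomerases, had 0.48 and 0.45 in clones 1 and 2 but 0.09 in clone 3 and -0.05 in the pool. Txndc5 had -0.16 in clone 1 and 0.31 and 0.52 in clones 2 and 3.

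The pool array carried the dyes the other way round. A gap between the clones and the pool and a difference between dyes therefore cannot be told apart for 1 probe. The mean of the clones lay below the pool by more than 0.35 for Pdia3, Xbp1, Dnajb11 and Pdia6, and above it by more than 0.35 for Eif2ak3, Ppp1r15a and Ero1b.

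In ER-associated degradation (ERAD), which draws misfolded chains back to the cytosol for the proteasome, none of 10 genes was called in either direction. Over all genes 0.15% were called higher and 0.374% lower, so a list this short would seldom hold a call. Fitted ratios were above 0 in 6 and below 0 in 4, with a median of 0.02 (0.07, -0.03 and -0.01 in clones 1, 2 and 3 and -0.02 in the pool). At an unadjusted p under 0.05, 2 were lower and none higher, against 8.09% and 7.26% of all genes. The median took both signs among the alternative settings, from -0.02 to 0.05.

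Herpud1 had the lowest ratio of all members. It encodes HERP, a membrane scaffold of the degradation complex whose transcription is known to respond to both the ATF6 and the PERK arms. The log2 intensity of Herpud1 was 10.68, 11.25 and 10.58 in R/R clones 1, 2 and 3 and 10.88 in the R/R pool, against 11.86, 11.85, 11.82 and 11.72 in the WT pool. All R/R values lay below all WT values, clone 2 nearest to them. The fitted log2 ratio was -0.92 ± 0.15 (1.90-fold higher in WT) and did not pass (limma adjusted p = 0.089). It passed without clone 2 (-1.03, adjusted p = 0.044).

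Syvn1, the gene of the ubiquitin ligase HRD1 at the centre of that complex, had log2 ratios of -0.53, -0.30 and -0.52 in clones 1, 2 and 3 and -0.18 in the pool. Its R/R levels, 13.20 to 13.39, all lay under the WT levels, 13.57 to 13.79. At -0.32 ± 0.10 it did not pass (limma adjusted p = 0.226). Sel1l, the adaptor of HRD1, stood at 0.13 ± 0.10, and Vcp, the ATPase that pulls chains out, at 0.27 ± 0.11 with its highest ratio, 0.58, in clone 2. Os9, a lectin that reads trimmed glycans, was at -0.03 ± 0.09.

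Edem1 and Edem2 encode mannosidase-like proteins that mark glycoproteins for degradation. Edem1 had log2 intensities of 10.13, 9.78 and 8.77 in R/R clones 1, 2 and 3 and 9.57 in the R/R pool, against 9.53, 9.54, 9.45 and 9.60 in the WT pool. Clones 1 and 2 lay above and clone 3 below all WT values, the widest spread among clones of any member (SD 0.66). Edem1's fitted ratio was accordingly 0.01 ± 0.25, and Edem2's was 0.05 ± 0.11. The derlin genes, whose products form the exit channel, also differed among clones: Derl1 had -0.38 in clone 2 and 0.32 in clone 3, Derl2 had 0.42 in clone 3 and 0.03 in clones 1 and 2, and Derl3 had -0.39 in clone 1 and 0.05 in clone 2. Another Derl1 probe gave 0.15, -0.16 and -0.05 in the clones, so the Derl1 value of clone 3 was not the same by both. For Derl2, one other probe gave -0.14 in clone 3 and 0.26 in clone 2, and another gave 0.29 in clone 3 and -0.10 in clone 1, so its order of clones depends on the probe too.

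None of the 5 sensors and regulators was called, against 0.15% of all genes called higher and 0.374% called lower. Their fitted ratios lay on both sides of 0, 3 above and 2 below. At an unadjusted p under 0.05 there were 2 lower and none higher, against 8.09% and 7.26% of all genes. The median log2 ratio of the 5 was 0.10 and took both signs among the alternative settings, from -0.07 to 0.21. Ppp1r15a and Atf6 were below 0 on all 4 arrays, whereas Xbp1, Ern1 and Eif2ak3 took both signs.

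Ppp1r15a encodes GADD34, the phosphatase subunit that reverses eIF2alpha phosphorylation and is itself induced through ATF4. It had log2 intensities of 9.27, 9.14 and 8.95 in clones 1, 2 and 3 and 8.97 in the R/R pool, against 9.63, 9.59, 9.42 and 9.78 in the WT pool. The R/R values all lay below the WT values. The fitted log2 ratio was -0.62 ± 0.09 (1.54-fold higher in WT, limma adjusted p = 0.069), with -0.35 to -0.47 in the clones and -0.82 in the pool.

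Atf6, the gene of the sensor that is cut in the Golgi to free a transcription factor, had ratios of -0.39, -0.20 and -0.33 in clones 1, 2 and 3 and -0.66 in the pool. Its R/R and WT levels overlapped, since the WT level itself ran from 7.89 to 8.30 over the arrays. The fitted value of -0.48 ± 0.09 did not pass (limma adjusted p = 0.114).

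Xbp1 had log2 intensities of 13.72, 13.54 and 12.69 in clones 1, 2 and 3 and 13.60 in the R/R pool, against 13.01, 13.16, 13.20 and 12.94 in the WT pool. Clone 3 was below and the other R/R samples above every WT value. The fitted log2 ratio was 0.43 ± 0.23 (limma adjusted p = 0.441), and without clone 3 it was 0.60 (adjusted p = 0.095). Clone 3 was also the lowest clone for other members, such as Edem1, Clgn, Canx, Calr, Hspa5 and, narrowly, Herpud1 (log2 ratio -1.25 against -1.18 in clone 1). It was the highest for others, such as Sdf2l1, Txndc5 and Pdia4. Any clone is lowest for some genes, and the share over all genes was not computed. The array gives 1 level for Xbp1 and does not separate the spliced from the unspliced transcript.

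Ern1, which encodes the splicing enzyme IRE1, had log2 intensities of 6.38 to 6.89 in R/R and 6.45 to 6.86 in WT channels and stood at 0.10 ± 0.14. Eif2ak3, which encodes PERK, had 0.24, 0.55 and 0.47 in clones 1, 2 and 3 but -0.03 in the pool, a fitted 0.20 ± 0.10 (limma adjusted p = 0.423).

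The translocon genes lay near 0. Sec61a1, the channel itself, had 0.02 in the pool and -0.04, -0.04 and -0.29 in clones 1, 2 and 3. The ratios of Sec61b, a small channel subunit, were 0.04, 0.02 and -0.02 in the clones and 0.30 in the pool, while another Sec61b probe gave 0.29, 0.06 and 0.26 in the clones and 0.21 in the pool, above 0 on all arrays. Ssr1, which encodes a translocon-associated subunit, ran from -0.31 in clone 1 to 0.35 in clone 3, where its other probes gave -0.17 and 0.41. Fitted values were -0.05 ± 0.10, 0.16 ± 0.09 and 0.08 ± 0.14, and none passed.

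Beyond the members, 74 further genes of ER folding, glycosylation, translocation, transport to the Golgi, degradation and signalling were listed, and 69 were tested. None was called by limma in either direction, against 0.15% of all genes called higher and 0.374% called lower. At an unadjusted p under 0.05, 1 was higher and 2 were lower, against 7.26% and 8.09% of all genes. The median log2 ratio of the 69 was 0.05, with 43 above and 26 below 0, against 46.4% and 53.6% of all genes. By list, medians were 0.07 for other folding enzymes, 0.07 for N-glycosylation, 0.06 for other translocon and signal peptidase genes, 0.17 for ER to Golgi transport, 0.04 for other degradation genes and -0.00 for other regulators. These medians are small: on the clones alone that of N-glycosylation was -0.04 (0.11 on the pool array), without clone 2 that of the other translocon genes was 0.02, and that of other regulators took both signs among the settings, from -0.06 to 0.05.

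In each list the genes with the smallest p are named. Among folding enzymes Fkbp2, a prolyl isomerase gene, stood at 0.32 ± 0.09, Sil1, a BiP exchange factor gene, at -0.33 ± 0.10 and Ero1a at -0.27 ± 0.11. Among glycosylation genes the oligosaccharyltransferase subunits Stt3b, Ddost and Ostc stood at -0.18 ± 0.10, 0.14 ± 0.09 and 0.13 ± 0.09. The signal peptidase genes Spcs2 and Sec11c were at -0.29 ± 0.11 and 0.16 ± 0.09, and Ssr2 was at 0.26 ± 0.12. Another Spcs2 probe gave 0.17, so its direction depends on the probe. For transport, the coat genes Sec24d and Sec31a were at 0.41 ± 0.17 and 0.29 ± 0.13 and the cargo receptor gene Lman2 at 0.33 ± 0.18. In R/R channels Sec24d cleared the background on 3 of 4 arrays. For degradation, Nploc4, a VCP cofactor gene, was at 0.23 ± 0.09, the ubiquitin-conjugating enzyme gene Ube2g2 at 0.20 ± 0.10 and Selenos at 0.17 ± 0.10. Among regulators Bak1 was at 0.28 ± 0.11, Traf2 at 0.16 ± 0.14 and Mbtps2, the gene of a protease that cuts ATF6, at -0.10 ± 0.09.

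The PERK and ATF4 arm stood apart from the chaperones in its values. All 12 of its genes lay below 0 on all 4 arrays, against 16.2% of all genes. Of the 12, 6 were called lower, against 0.374% of all genes, and none higher. The arm's median log2 ratio was -1.15 (array medians -1.20 to -1.17). The range of these 12 genes was wide, -2.47 to -0.28. It took in the members Herpud1, Ppp1r15a, Atf6 and Syvn1 (-0.92, -0.62, -0.48 and -0.32). Further listed genes such as Sil1 (-0.33) and Spcs2 (-0.29) also lay within it, so the range singles out no member. The genes with the smallest p were Chac1, Trib3 and Ddit3, with clone ratios of -2.84 to -2.37, -2.39 to -1.92 and -1.88 to -1.56. This list was known to be low from earlier work on these arrays, and it shares the WT pool with the members, so it is no separate evidence. Set side by side, chaperones, ERAD genes, sensors and the ATF4 arm had medians of 0.19, 0.02, 0.10 and -1.15. Differences between these lists were not tested.

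**Figure D4:**
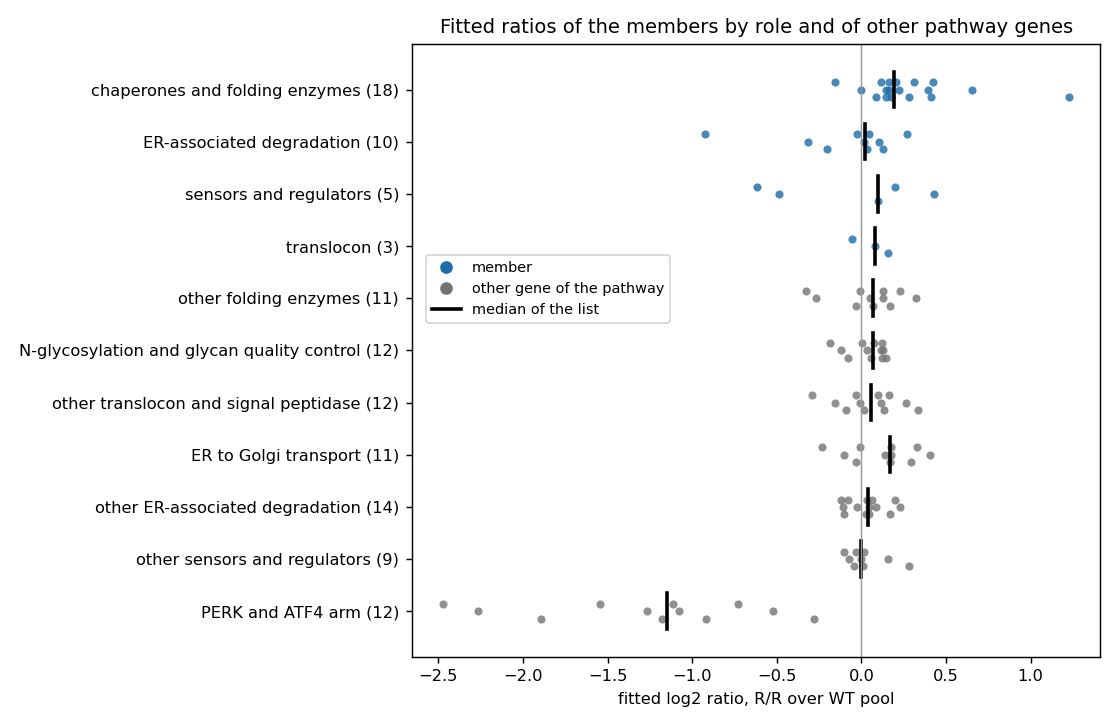
Fitted log2 ratio, R/R over WT pool, of every tested gene (points) in the 4 roles of the members (blue) and in 7 lists of other pathway genes (grey); black bars are medians and numbers in brackets are genes tested. The chaperones have a median of 0.19 and the PERK and ATF4 arm one of -1.15, and all 12 points of that arm lie left of 0.

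Because antibody-secreting cells are rich in ER, 6 plasma cell markers were set beside these results, and their part in them was not tested. Of the 5 that passed the filter none was called, against 0.15% of all genes called higher and 0.374% called lower. The summed intensity of all 6 was 13722 to 18547 in R/R channels and 15712 to 16587 in WT channels, and no marker was dim in all channels. Mzb1, at log2 13.46 to 14.02 in R/R channels, made up most of that sum. The sum therefore says little about the other markers, such as Jchain at 9.09 to 10.34 in R/R channels. Jchain, the joining chain gene of secreted antibody, had 1.28, 1.61 and 0.61 in clones 1, 2 and 3 and 1.24 in the pool (fitted 1.21 ± 0.20, limma adjusted p = 0.089). Sdc1 stood at 0.33 ± 0.15 and Irf4 at -0.30 ± 0.16, while Prdm1 and Mzb1 were at 0.04 ± 0.09 and 0.04 ± 0.14. Jchain was lowest among the clones in clone 3, and so were some members, among them Clgn, Hspa5, Hsp90b1, Herpud1 and Sec61a1. A rank among 3 clones says little, and a link between Jchain and Clgn was not tested.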

How the data were processed

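Each array file gives intensity values, the median pixels of every spot and of its surround in both dyes, which the authors left uncorrected, per the file headers (Agilent Feature Extraction 11.5.1.1). It also gives deposited log10 ratios of Cy5 over Cy3 that the scanner software had corrected for background and dye, per the file headers; these served as an alternative. A deposited table of log2 values was not used, since its row numbers match no probe column (4 columns of sample values).

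Signals were corrected by normexp (offset 50) and normalised by loess per array in limma 3.58.1 (R 4.3.3); control spots had weight 0. Outlier spots (210 to 265 per array) were dropped and spots of a probe averaged. A probe was kept if at least 3 of 4 arrays had it well above background in either genotype's channel (26450 of 55681). RefSeq accessions named the probes (27656 with a symbol). One probe per gene, the brightest, left 20051 genes, 12304 of them with a symbol. A transcript without a symbol was counted as a gene of its own, so a gene could be counted more than once. Channel levels followed quantile scaling of average intensities, which leaves ratios unchanged. The fit had genotype and dye terms, giving the clone mean and the pool the same weight, with 2 residual degrees of freedom; p-values are 2-sided. The WT pool's own spread is left out, and precision is limited by how few arrays there are. The array files share a slide number, which leaves no slide batch. The fit was tested on simulated data.

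The members, lists and rule for named genes (all members, and in each further list the 3 genes with the smallest p) were chosen with earlier results of these data known. Plasma markers that passed the filter are all given. Alternatives changed the offset (16), the ratios (scanner software), the centring or scaling, the filter, the probe rule, the dye term, the arrays used (clones only, or 1 clone left out, or the first 2 clones averaged), the variance trend and the threshold (0.10).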

Additional observations from a re-analysis of the deposited data

How the results depend on the processing

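No paired analysis was possible because every array already sets R/R against the same WT pool and the clones share no numbers with WT samples. The deposited log2 table was not run. One member was called higher in the main setting; none was under median centring, scaling, the scanner software's ratios or no filter, 2 were on the clones alone, 3 without a dye term and 2 at a threshold of 0.10, and leaving out a clone gave 0 to 1. No member was called lower, against 2 without a dye term, 2 at 0.10, and 0 to 1 with a clone left out. Over all genes 105 were called (30 higher, 75 lower), and 50 (6 and 44) by scanner ratios, 30 (2 and 28) by median centring, 1140 (490 and 650) without a dye term, 310 (107 and 203) at 0.10, and 61 to 264 with a clone left out; without clone 1 there were 61 and without clone 3 there were 264. The chaperone median was 0.21 with offset 16, 0.23 with the scanner ratios, 0.21 on the clones alone and 0.23 without a dye term, and 0.17 to 0.20 with a clone left out. The translocon median was 0.11 with median centring, 0.0075 on the clones alone, 0.043 without a dye term and 0.12 with clones 1 and 2 averaged, and -0.0068 to 0.15 with a clone left out. Of 504 member values under the 14 alternatives 479 kept their direction and their side of the threshold. The sign turned for genes near 0: Dnajb9 (0.028 by scanner ratios, 0.015 on the clones alone, 0.0059 without a dye term, -0.040 to 0.036 with a clone left out), Pdia3 (-0.074) and Ern1 (-0.069) on the clones alone, Edem1 (-0.12 without clone 1, -0.03 without clone 2, -0.078 with clones 1 and 2 averaged), Edem2 (-0.010 with median centring), Derl1 (-0.0075 with the mean of probes, -0.043 to 0.13 with a clone left out), Ssr1 (-0.0068 to 0.16 with a clone left out), Ostc (-0.014) and Mbtps2 (0.040) on the clones alone. The cause was not tested.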
